A study of Mus musculus with 19 samples.

Results

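Transcription factors that set or mark the segments of the kidney tubule were followed in RNA from entire kidneys of 3-week-old mice. The set was a fixed list of 35 genes, matched by symbol among 54146 Ensembl gene identifiers. Each of the 35 was found once, and 31 had a mean of at least 1 TPM (a transcript abundance corrected for length that sums to the same total in each library) over the 5 RNA libraries. The mutant kidneys, KspCre DKO (2 libraries), carried floxed Dnmt3a and Dnmt3b together with a Cre driven by the promoter of Ksp-cadherin (Cdh16), which is active in tubule and ureteric epithelium and leaves the genes intact in other cells. The controls (3 libraries) carried the same floxed genes with no Cre, so an effect of the Cre itself cannot be told apart from the loss of the enzymes. All animals were of strain B6C3F1/J and 21 days old. Dnmt3a and Dnmt3b encode the enzymes that methylate DNA de novo, and the series addresses what their absence does in the developing kidney. Whether each library is its own animal is not stated in the labels, and a p-value here covers no more than the spread among the 5 libraries. The other 14 of 19 samples, bisulfite libraries that include a Six2Cre DKO group, are not analysed here.

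The nephron is a tube whose stretches differ in the genes they use. Paired-box factors Pax2 and Pax8 mark its epithelium throughout, and each stretch adds its own regulators. These include Hnf4a in the proximal tubule, Iroquois factors and Pou3f3 in the loop of Henle, and Tfap2b in the distal convoluted tubule. GATA, ETS and grainyhead factors are used in the collecting duct, which grows from the ureteric bud. The collecting duct holds principal cells, which take up water and sodium, and intercalated cells, which move acid. Several collecting duct factors, among them Gata3 and Elf3, are also used in the urothelium, the lining of the renal pelvis.

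The libraries differed in complexity. The second KspCre DKO library had nonzero TPM for 14710 genes, the first for 20510, and the controls for 18488 to 20075. In the second, mitochondrially encoded genes held 31.0% of all TPM, against 22.1% in KspCre DKO replicate 1 and 18.2% to 23.2% in the controls. Of the 31 tested factors, 27 (87.1%) were lower in KspCre DKO replicate 2 than in replicate 1, as were 79.3% of all 13963 tested genes. Values without each KspCre DKO library are therefore given beside the results they touch. Depth is unknown, since read numbers are lost in TPM. The deleted genes did not separate the groups. Dnmt3a stood at 9.98 and 14.2 TPM in KspCre DKO kidneys, against 13.2, 18.97 and 15.5 TPM in controls. Dnmt3b stood at 2.29 and 3.25 TPM, against 1.82, 2.86 and 1.98 TPM. Entire kidneys include cells in which these genes stay intact, so their TPM does not check the deletion.

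None of the 31 tested factors passed the test over all genes (limma, adjusted p below 0.05), where 0.165% of all 13963 tested genes did. In these libraries 7 factors had an unadjusted p below 0.05, or 22.6% of those tested, against 10.3% of all tested genes. Of the 7, 6 were higher in KspCre DKO kidneys (4.16% of all genes were higher at this p) and 1 was lower (6.15% of all genes). All 6 of the higher factors belonged to the 10 placed in the collecting duct, and the lower one, Esrrb, to the 7 placed in the loop of Henle. The groups did not overlap for 7 higher factors (10.5% of all tested genes) and for 2 lower ones (15.6% of all tested genes). The median log2 fold change, on the log2(TPM + 1) scale and as KspCre DKO minus control, was −0.11 over the 31 factors and −0.14 over all tested genes. The factors and their placement by segment were chosen with earlier results of these data known, so a segment's direction is a description and no evidence of its own.

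**Figure D1:**
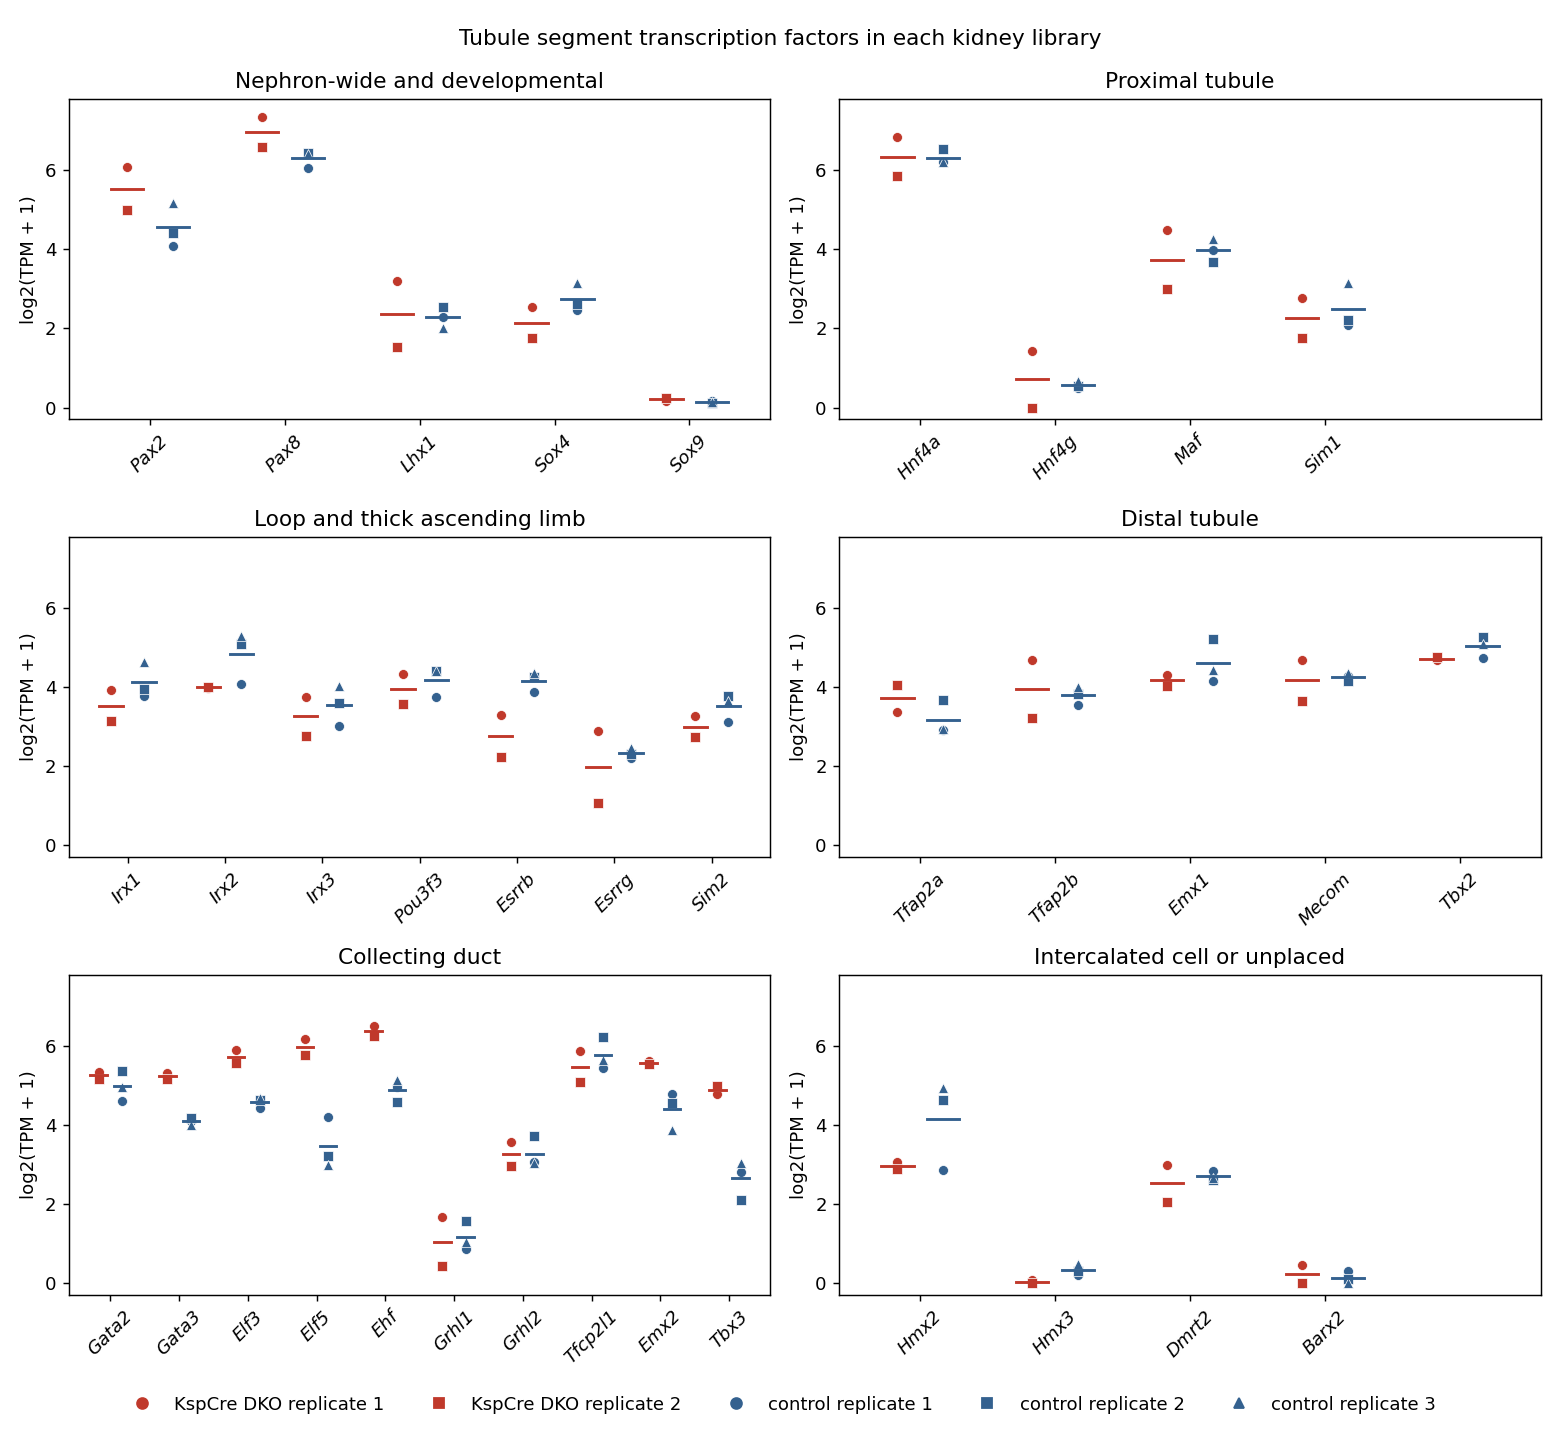
Level of each of the 35 factors in each library as log2(TPM + 1), with KspCre DKO libraries in red to the left of control libraries in blue, a marker shape for each replicate and a bar at the group mean. In the collecting duct panel both red points of Gata3, Elf3, Elf5, Ehf, Emx2 and Tbx3 lie above all 3 blue points, while those of Gata2, Grhl1, Grhl2 and Tfcp2l1 overlap them.

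The collecting duct factors held the largest differences. Their 10 members were all tested, 7 were higher and 3 lower, and their median log2 fold change was 1.14. Elf5, an ETS-family activator found in principal cells, stood at 70.8 and 53.6 TPM in KspCre DKO kidneys, against 17.2, 8.29 and 6.85 TPM in control kidneys. Both KspCre DKO libraries lay far above the highest control. The log2 fold change was 2.51 ± 0.40 (SE; limma adjusted p = 0.0705). Tbx3, a T-box repressor, stood at 26.3 and 30.6 TPM in KspCre DKO kidneys, against 6.02, 3.27 and 7.15 TPM in control kidneys (log2 fold change 2.23 ± 0.36 SE, limma adjusted p = 0.0705). Here the groups were also apart, and the higher KspCre DKO value came from replicate 2, the library with the fewest genes. In bulk kidney, more cells of a type and more RNA per cell cannot be told apart.

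The nearby ETS gene Ehf stood at 90.1 and 74.8 TPM in KspCre DKO kidneys, against 30.1, 22.8 and 34.0 TPM in control kidneys (log2 fold change 1.49 ± 0.29 SE, limma adjusted p = 0.129). Elf3, the third epithelial ETS factor of the list, stood at 58.2 and 46.4 TPM, against 20.6, 23.6 and 24.8 TPM in controls (log2 fold change 1.15 ± 0.27 SE, limma adjusted p = 0.19). Every KspCre DKO value of these genes exceeded every control value. Gata3, a zinc finger factor needed for the duct that gives rise to the ureteric bud, stood at 38.5 and 34.7 TPM in KspCre DKO kidneys, against 16.1, 17.1 and 15.1 TPM in control kidneys (log2 fold change 1.14 ± 0.27 SE, limma adjusted p = 0.188). Emx2, a homeobox factor that the mouse ureteric bud needs, stood at 47.6 and 45.3 TPM, against 26.3, 22.3 and 13.7 TPM in controls (log2 fold change 1.17 ± 0.33 SE, limma adjusted p = 0.271). Libraries within a group were close for Gata3, which averaged 36.6 ± 2.73 TPM in KspCre DKO kidneys (SD, n = 2) and 16.1 ± 1.02 TPM in controls (SD, n = 3).

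The sizes of these 6 differences did not rest on the low-complexity library. Without KspCre DKO replicate 2 the log2 fold changes were 2.71 for Elf5, 2.13 for Tbx3, 1.62 for Ehf, 1.31 for Elf3, 1.21 for Gata3 and 1.20 for Emx2. Without KspCre DKO replicate 1 they were 2.31, 2.34, 1.36, 0.99, 1.06 and 1.14 in the same order. Each of these refits holds a single KspCre DKO library, taken to vary like the controls. The adjusted p depended more on the libraries than the sizes did. Leaving out control replicate 1, whose Elf5 was the highest of the controls, gave Elf5 a limma adjusted p of 0.0141, where 0.324% of all tested genes were called higher. Leaving out KspCre DKO replicate 1 gave Tbx3 a limma adjusted p of 0.0488, where 0.65% were. Elf5 and Tbx3 also passed with a pseudocount of 5, where 0.201% of all tested genes were called higher. Both passed with the replicate numbers as a block, where 0.337% were. Those numbers were not shown to pair the libraries, and control replicate 3 has no partner in that fit. Elf5 passed with TPM rescaled without mitochondrial genes, where 0.179% were called higher. Over all alternatives the limma adjusted p ran from 0.0141 to 0.405 for Elf5 and from 0.0291 to 0.403 for Tbx3.

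The other 4 collecting duct factors showed no such difference. Gata2, which binds the gene of the water channel Aqp2 in the mouse collecting duct, stood at 39.7 and 34.6 TPM in KspCre DKO kidneys, against 23.4, 40.2 and 30.3 TPM in controls. Tfcp2l1, a grainyhead-related factor that patterns principal and intercalated cells, stood at 57.0 and 33.1 TPM, against 42.2, 73.4 and 48.8 TPM in controls. Grhl2, which controls epithelial barrier genes, averaged 8.85 ± 2.86 TPM (SD, n = 2), against 8.91 ± 2.86 TPM in controls (SD, n = 3). Its relative Grhl1 was the lowest tested factor of all, at 2.15 and 0.35 TPM, against 0.81, 1.95 and 1.06 TPM in controls. The log2 fold changes were 0.27 ± 0.31 for Gata2, −0.29 ± 0.35 for Tfcp2l1, −0.0037 ± 0.36 for Grhl2 and −0.11 ± 0.52 for Grhl1 (SE; limma adjusted p = 0.795 to 0.999). The sign of both grainyhead genes turned positive with quantile normalization, and that of Grhl2 also with the other scalings.

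**Figure D2:**
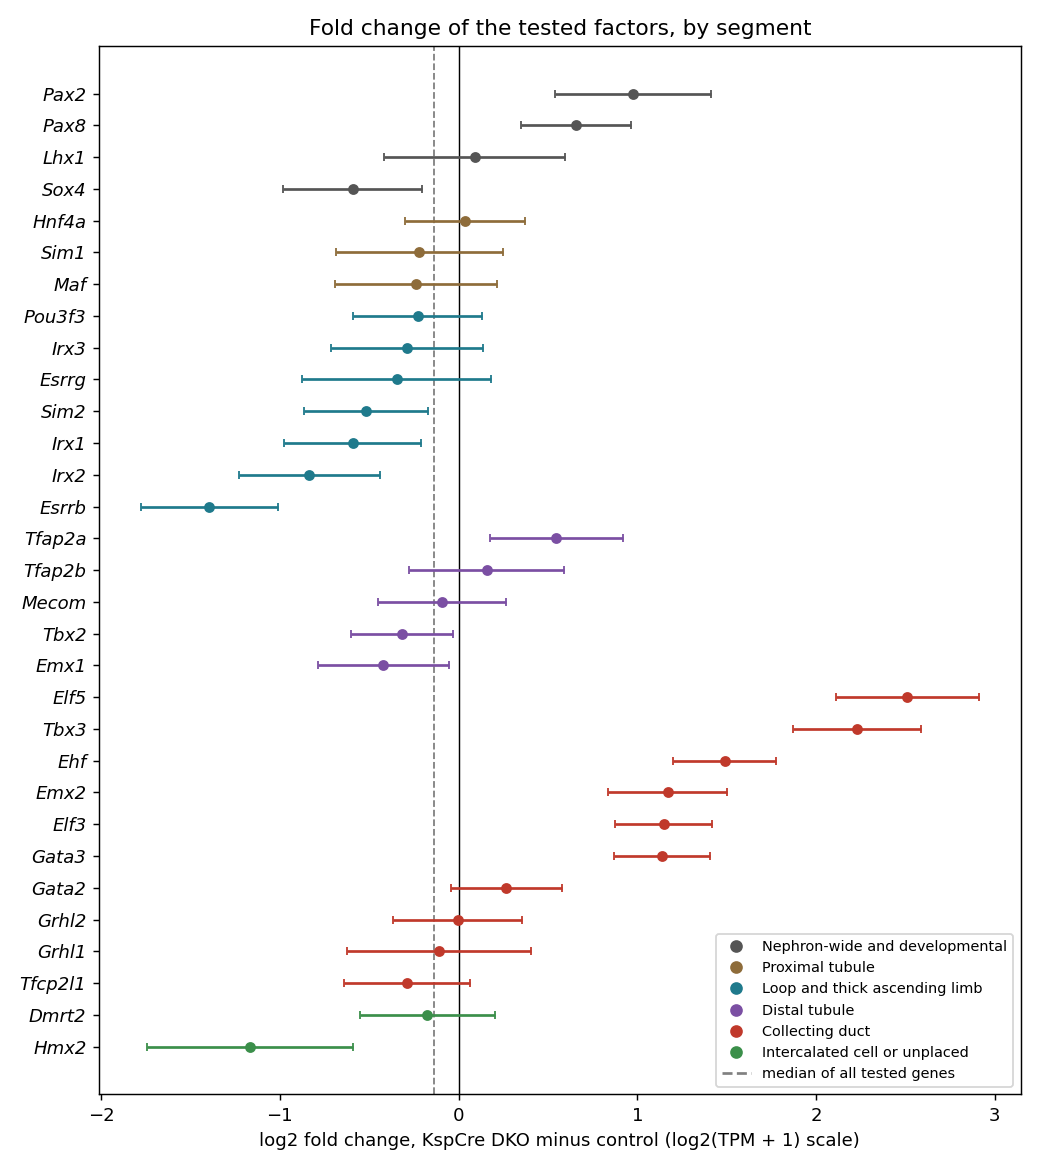
Log2 fold change of the 31 tested factors, KspCre DKO minus control, with bars of 1 SE, coloured by segment and sorted within it. The dashed line is the median of all tested genes, −0.14. Elf5 and Tbx3 lie beyond 2, Esrrb and Hmx2 below −1, and the proximal and distal factors lie around the dashed line.

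The DNA just before the start sites of these genes was set out for the 6 windows below, since CG dinucleotides are where the deleted enzymes act. Sequences are from RefSeq on build GRCm38.p6, on the strand of the gene, 250 bases before an annotated start. CG pairs are in capitals.
Elf5 first start, chr2:103411848-103412097, plus strand: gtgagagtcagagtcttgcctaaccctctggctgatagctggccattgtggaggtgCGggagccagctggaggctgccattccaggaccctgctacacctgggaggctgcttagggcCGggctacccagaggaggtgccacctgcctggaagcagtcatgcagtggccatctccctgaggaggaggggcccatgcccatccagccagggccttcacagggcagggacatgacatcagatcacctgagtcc
Elf5 second start, chr2:103423818-103424067, plus strand: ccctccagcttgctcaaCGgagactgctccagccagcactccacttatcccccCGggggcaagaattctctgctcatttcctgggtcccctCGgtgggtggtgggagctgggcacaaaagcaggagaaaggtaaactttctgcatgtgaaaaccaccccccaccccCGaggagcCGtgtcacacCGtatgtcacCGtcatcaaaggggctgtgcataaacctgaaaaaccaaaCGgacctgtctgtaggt
Elf3, chr1:135258473-135258722, minus strand: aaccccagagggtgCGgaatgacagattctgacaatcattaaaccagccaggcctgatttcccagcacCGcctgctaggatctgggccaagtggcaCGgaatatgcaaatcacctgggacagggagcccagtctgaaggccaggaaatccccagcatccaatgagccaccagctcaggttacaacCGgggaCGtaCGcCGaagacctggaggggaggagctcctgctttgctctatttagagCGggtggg
Gata3, chr2:9878601-9878850, minus strand: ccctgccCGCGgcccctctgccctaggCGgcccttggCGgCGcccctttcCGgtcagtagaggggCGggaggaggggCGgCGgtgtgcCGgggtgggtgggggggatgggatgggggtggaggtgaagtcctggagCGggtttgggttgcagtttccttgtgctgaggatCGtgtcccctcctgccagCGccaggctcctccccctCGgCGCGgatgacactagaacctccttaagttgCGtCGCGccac
Emx2, chr19:59458440-59458689, plus strand: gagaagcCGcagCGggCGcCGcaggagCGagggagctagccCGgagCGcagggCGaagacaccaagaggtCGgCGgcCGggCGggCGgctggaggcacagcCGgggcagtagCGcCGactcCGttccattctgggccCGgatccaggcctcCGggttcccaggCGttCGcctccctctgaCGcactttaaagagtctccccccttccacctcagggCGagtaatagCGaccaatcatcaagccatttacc
Esrrb first start, chr12:86360867-86361116, plus strand: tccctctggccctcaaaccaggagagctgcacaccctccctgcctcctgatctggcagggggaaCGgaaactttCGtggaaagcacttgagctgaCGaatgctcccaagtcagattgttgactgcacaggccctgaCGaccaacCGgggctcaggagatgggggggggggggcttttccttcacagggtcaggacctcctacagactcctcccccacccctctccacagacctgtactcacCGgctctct

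Windows of Ehf and Tbx3 are not analysed here, and those of Elf5, Elf3, Gata3 and Emx2 differed in CG content. The first Elf5 window held 2 CG and the second 8, Elf3 held 8, Gata3 19 and Emx2 24, and the first Esrrb window held 6. Of all 32851 windows in the table, 18.8% had fewer CG than the first Elf5 window, 57.0% fewer than the second and 57.0% fewer than Elf3, 80.3% fewer than Gata3, 88.0% fewer than Emx2 and 49.6% fewer than the first Esrrb window. Over the 25 factors with a sequence, 38 windows had a median of 13.5 CG, against 6 over all windows. In the early mouse embryo, Elf5 is known as a gene whose promoter methylation separates embryonic from trophoblast cells. Methylation at these windows was not analysed here. The letters CGGAA, an ETS core that overlaps a CG, were found on either strand 2 times in the Elf3 window, 1 time in that of Gata3 and 1 time in the first of Esrrb, and in neither Elf5 window. They occur in 11 of the 38 factor windows and in 25.2% of all windows. The letters AGATAA, bound by GATA factors, were found on either strand in 1 of the 38 windows, the first start of Hnf4a, and in 9.99% of all windows.

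Ehf and Elf5 are neighbours among the protein-coding genes of chromosome 2 (build GRCm38.p6), Ehf from 103263431 to 103303275 and Elf5 from 103412098 to 103450989, with 108822 bases and the noncoding genes A930006I01Rik and BC016548 between them. Cat, the catalase gene just beyond Elf5, stood at 269 and 145 TPM in KspCre DKO kidneys, against 212, 117 and 110 TPM in controls, with overlapping groups (log2 fold change 0.49, limma adjusted p = 0.687). Apip, on the other side of Ehf, stood at 25.5 and 24.7 TPM, against 19.0, 20.1 and 22.9 TPM in controls, with the groups apart (log2 fold change 0.27). Pdhx, Abtb2 and Nat10, the other tested genes within 300000 bases, had log2 fold changes of −0.56, −0.45 and −0.41. The pair of ETS genes had larger differences than the 5 tested genes around them, and none of the 7 passed the test. The region was drawn around these factors, already among the largest differences of the list, so the contrast is no evidence of its own.

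**Figure D3:**
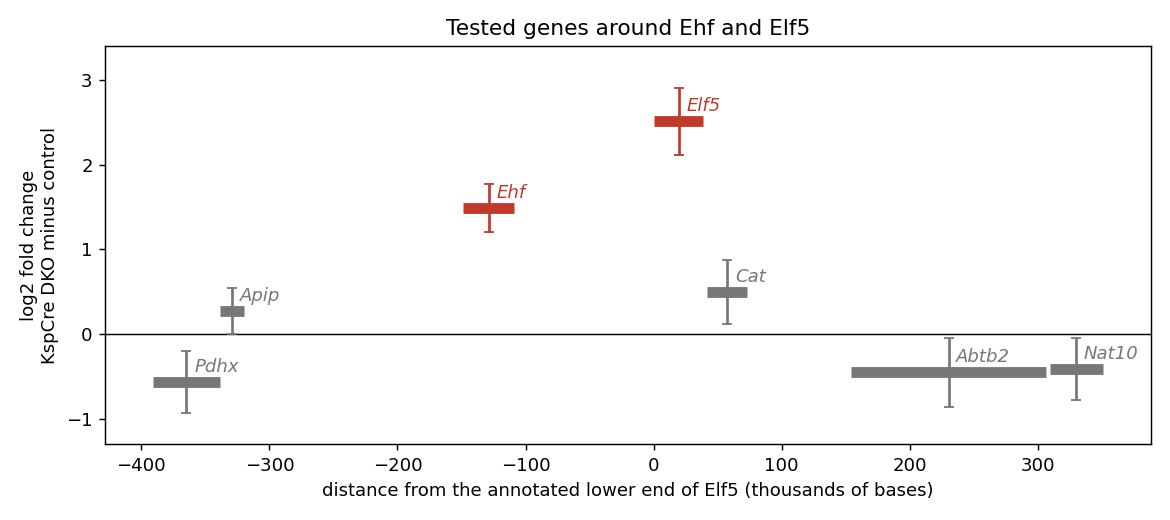
Log2 fold change (KspCre DKO minus control, bars of 1 SE) of the 7 tested genes around Ehf and Elf5, drawn over their annotated length as distance from the lower end of Elf5 in kb. Ehf and Elf5, in red, lie at 1.49 and 2.51, and the genes in grey between −0.56 and 0.49.

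Related factors were also read against each other. In 14 pairs of related tested factors the ratio of (TPM + 1) was compared between groups. The exact permutation test had 10 splits and a smallest p of 0.1, so no pair could fall below 0.05. The groups did not overlap for 6 pairs whose ratio was higher in KspCre DKO kidneys and 1 whose ratio was lower. Levels of single genes did not overlap for 26.1% of all tested genes, in either direction. That share is for levels, and no such share was computed for ratios. The pairs are not independent, since 3 of the 6 were formed from Elf5, Ehf and Elf3. In each of the 6 the first factor was already apart in its own level, so the ratios are no separate evidence. Tbx3 stood at 1.07 and 1.17 times the TPM of Tbx2 in KspCre DKO kidneys, against 0.235, 0.087 and 0.215 times in control kidneys (exact p = 0.1, two-sided, and 0.35 adjusted over the 14 pairs). Tbx2, a T-box repressor known from the distal segment of the zebrafish, itself stood at 24.6 and 26.1 TPM, against 25.7, 37.5 and 33.3 TPM in controls. In every control library Tbx2 was several times as abundant as Tbx3, and in both KspCre DKO libraries the pair was level.

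Emx2 stood at 2.51 and 2.94 times the TPM of Emx1 in KspCre DKO kidneys, against 1.56, 0.62 and 0.668 times in controls (exact p = 0.2). Gata3 stood at 0.971 and 1.003 times Gata2, against 0.686, 0.425 and 0.497 times in controls (exact p = 0.2). In these pairs the ranges were also apart, and control replicate 1 lay nearest to the KspCre DKO libraries. Among the ETS factors, Elf5 stood at 1.22 and 1.15 times Elf3 in KspCre DKO kidneys, against 0.834, 0.352 and 0.276 times in controls (exact p = 0.2). The ratio of Esrrb to Esrrg was lower, at 1.37 and 3.41 in KspCre DKO kidneys, against 3.75, 4.64 and 4.28 in controls (exact p = 0.1). After adjustment over the 14 pairs no p was below 0.35.

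**Figure D4:**
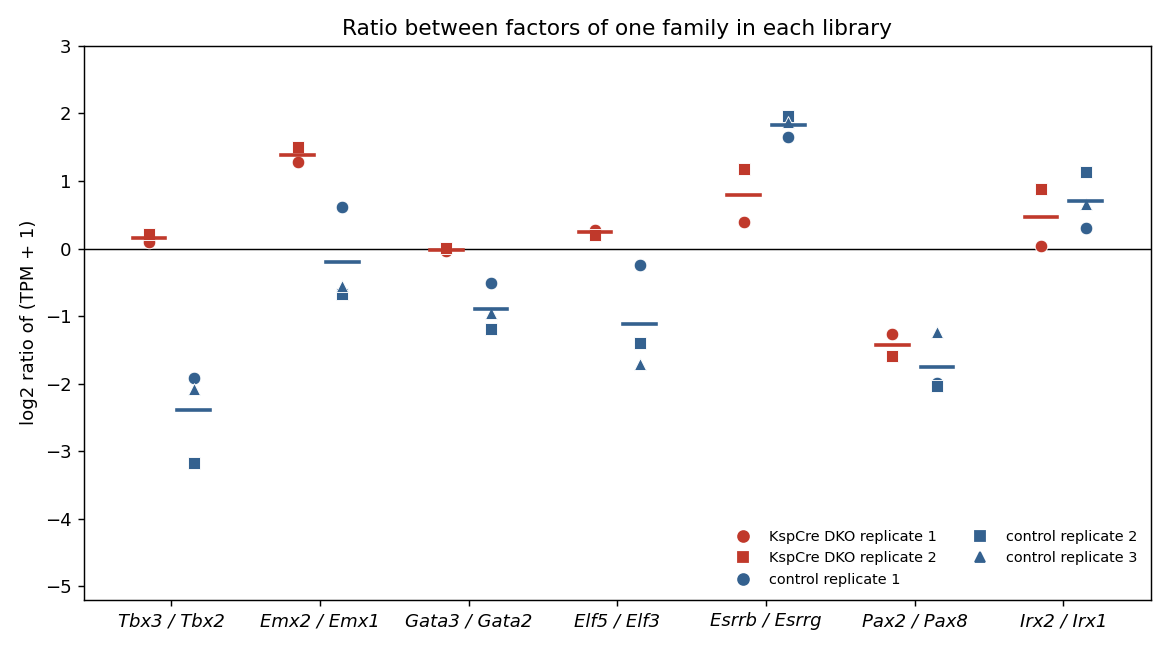
Log2 ratio of (TPM + 1) between members of a family in each library, for 7 of the 14 pairs, with KspCre DKO in red to the left of control in blue and a bar at each group mean. The ratios of Tbx3 to Tbx2, Emx2 to Emx1, Gata3 to Gata2 and Elf5 to Elf3 lie higher in both KspCre DKO libraries, that of Esrrb to Esrrg lower, and those of Pax2 to Pax8 and Irx2 to Irx1 overlap.

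All 7 factors of the loop of Henle had a negative log2 fold change, none of them called, with a median of −0.52 against −0.14 for all tested genes. Of all tested genes 61.7% had a negative one too. Esrrb, an orphan nuclear receptor of the estrogen-related family, stood at 8.80 and 3.72 TPM in KspCre DKO kidneys, against 13.6, 18.3 and 19.3 TPM in control kidneys. The groups did not overlap (log2 fold change −1.39 ± 0.38 SE, limma adjusted p = 0.255). Irx2, an Iroquois homeobox factor, stood at 14.7 and 15.2 TPM in KspCre DKO kidneys, against 16.0, 33.0 and 38.5 TPM in controls (log2 fold change −0.83 ± 0.39 SE, limma adjusted p = 0.518). Control replicate 1 lay just above the KspCre DKO libraries, so the groups were apart by little.

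Irx1, which lies on chromosome 13 as Irx2 does, stood at 14.3 and 7.77 TPM in KspCre DKO kidneys, against 12.8, 14.5 and 24.0 TPM in controls (log2 fold change −0.59 ± 0.38 SE, limma adjusted p = 0.635). Irx3, known in the frog for setting the intermediate tubule, stood at 12.5 and 5.83 TPM, against 7.11, 11.1 and 15.4 TPM in controls. Pou3f3, a POU factor that the mouse loop of Henle needs in order to form, stood at 19.3 and 10.8 TPM, against 12.5, 20.0 and 20.1 TPM in controls. In these genes KspCre DKO replicate 1 lay among the controls, and replicate 2 lay low. Esrrg, the second estrogen-related receptor of the list, was the most divided, at 6.44 TPM in KspCre DKO replicate 1, above all controls, and 1.09 TPM in replicate 2, below all controls (3.62 to 4.52 TPM). Sim2, a basic helix-loop-helix factor, stood at 8.59 and 5.62 TPM, against 7.63, 12.8 and 11.5 TPM in controls.

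The loop factors had a median of −0.81 when KspCre DKO replicate 1 was left out and −0.19 when replicate 2 was, where all tested genes had medians of −0.39 and 0.13. Without replicate 2, Irx3, Pou3f3 and Esrrg took positive log2 fold changes of 0.20, 0.16 and 0.57, while Esrrb and Irx2 stayed at −0.87 and −0.85. Without replicate 1, Esrrb alone among the loop factors had a limma adjusted p below 0.05, at 0.0436, in a refit that called 3.39% of all tested genes lower.

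Factors of nephron epithelium as a whole ranged from the highest to the lowest level of the list. Pax8, the most abundant of the 35, stood at 162 and 95.2 TPM in KspCre DKO kidneys, against 66.2, 85.8 and 84.5 TPM in controls (log2 fold change 0.66 ± 0.31 SE, limma adjusted p = 0.514). The groups did not overlap, though KspCre DKO replicate 2 lay close above the highest control. Pax2 stood at 66.5 and 30.9 TPM in KspCre DKO kidneys, against 16.0, 20.2 and 35.4 TPM in controls (log2 fold change 0.98 ± 0.43 SE, limma adjusted p = 0.498). Control replicate 3 was above KspCre DKO replicate 2. Lhx1, a LIM homeobox factor of early nephron patterning, stood at 8.20 and 1.91 TPM, against 3.89, 4.84 and 3.02 TPM in controls. Sox4, used by nephron progenitors, stood at 4.78 and 2.41 TPM, against 4.51, 5.18 and 7.81 TPM in controls. Sox9, which marks progenitors and injured tubule cells, was at or below 0.19 TPM in every library and was not tested.

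The proximal tubule factors did not differ beyond the spread. Hnf4a, the nuclear receptor that the mouse proximal tubule needs to mature, stood at 113 and 57.2 TPM in KspCre DKO kidneys, against 73.0, 91.9 and 72.6 TPM in control kidneys. The KspCre DKO libraries lay on either side of the controls (log2 fold change 0.03 ± 0.34 SE, limma adjusted p = 0.98). Maf, a basic leucine zipper factor, stood at 21.6 and 6.93 TPM, against 14.8, 11.9 and 18.3 TPM in controls. Sim1, which is known from the proximal straight tubule of the zebrafish, stood at 5.86 and 2.38 TPM, against 3.26, 3.65 and 7.90 TPM in controls. Each had 1 KspCre DKO library below all controls, and it was replicate 2. Hnf4g, the close relative of Hnf4a, was at 1.68 and 0 TPM, against 0.40, 0.47 and 0.58 TPM in controls, and was not tested.

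Factors placed in the distal tubule were mixed, with 2 higher, 3 lower and a median log2 fold change of −0.09. Tfap2b, the AP-2 factor needed for the mouse distal convoluted tubule, stood at 24.5 and 8.35 TPM in KspCre DKO kidneys, against 10.7, 13.2 and 14.99 TPM in controls. Its relative Tfap2a stood at 9.39 and 15.7 TPM, against 6.57, 11.7 and 6.63 TPM in controls. The AP-2 genes thus took opposite orders within the KspCre DKO group. Mecom, a zinc finger factor known from the zebrafish distal segment, stood at 24.7 and 11.6 TPM, against 18.5, 16.7 and 19.4 TPM in controls. Emx1, also known from the zebrafish distal segment, stood at 18.9 and 15.4 TPM, against 16.8, 36.1 and 20.5 TPM in controls. All 5 had limma adjusted p-values from 0.652 to 0.949.

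Of the factors placed with intercalated cells or in no segment, Hmx2 differed most. This homeobox gene stood at 7.27 and 6.41 TPM in KspCre DKO kidneys, against 6.20, 23.8 and 29.5 TPM in control kidneys (log2 fold change −1.17 ± 0.57 SE, limma adjusted p = 0.531). Control replicate 1 lay below both KspCre DKO libraries, so the groups overlapped. Without control replicate 1 the log2 fold change of Hmx2 was −1.81 and its limma adjusted p 0.114. Hmx3, the neighbouring gene on chromosome 7, was at 0.05 and 0 TPM, against 0.14, 0.24 and 0.39 TPM in controls, too low for a test. Dmrt2, a doublesex-related factor of intercalated cells, stood at 6.96 and 3.12 TPM, against 6.13, 5.08 and 5.24 TPM in controls. Barx2, a homeobox gene, was at or below 0.38 TPM in every library.

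Other genes of the same segments were read beside the factors, by counts and medians. Of 10 principal cell genes 6 were higher and 4 lower, with a median log2 fold change of 0.43, and none passed the test. At an unadjusted p below 0.05, 4 were higher and none was lower, where 4.16% of all tested genes were higher and 6.15% lower. Aqp2, the water channel that vasopressin controls, stood at 1414 and 1218 TPM in KspCre DKO kidneys, against 347, 240 and 426 TPM in controls (log2 fold change 1.995 ± 0.29 SE, limma adjusted p = 0.0512). Aqp4, a basolateral water channel, stood at 103 and 83.1 TPM, against 28.6, 9.79 and 9.52 TPM in controls (log2 fold change 2.64 ± 0.46 SE, limma adjusted p = 0.088). The water channel genes were thus apart between groups as Elf5 was, and control replicate 1 was the highest control for Aqp4 and for Elf5. The sodium channel subunits Scnn1b and Scnn1g, of the same cells, had log2 fold changes of −0.24 and −0.25. Their groups were also apart, by little and in the lower direction. Over the 10 genes the groups did not overlap for 5 higher and 2 lower ones, against 10.5% and 15.6% of all tested genes.

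The intercalated cell list had 1 gene higher and 8 lower of 9, with a median of −0.54 and none called. At an unadjusted p below 0.05, 2 were lower, as were 6.15% of all tested genes. Slc26a4, the bicarbonate exchanger pendrin, stood at 19.3 and 17.0 TPM in KspCre DKO kidneys, against 31.6, 45.7 and 32.5 TPM in controls (limma adjusted p = 0.309). Atp6v0d2, a proton pump subunit, stood at 19.1 and 8.42 TPM, against 23.0, 28.3 and 29.2 TPM in controls (limma adjusted p = 0.398). Atp6v1b1, another pump subunit, stood at 110 and 78.0 TPM, against 108, 166 and 107 TPM in controls. Thus within the duct, principal cell genes had a positive median and intercalated cell genes a negative one, and the difference between the lists was not tested.

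Of 12 thick limb genes 1 was higher and 11 lower (median −1.20), and none was called. At an unadjusted p below 0.05, 7 were lower, as were 6.15% of all tested genes. Slc12a1, the salt cotransporter of the segment, stood at 191 and 61.3 TPM in KspCre DKO kidneys, against 394, 562 and 519 TPM in control kidneys (log2 fold change −2.15 ± 0.44 SE, limma adjusted p = 0.141). Wfdc15b, a small secreted protein gene, stood at 312 and 191 TPM, against 568, 597 and 710 TPM in controls (log2 fold change −1.35 ± 0.28 SE, limma adjusted p = 0.142). Among the loop factors, Esrrb was also apart between the groups, and Irx2 by little. The groups overlapped for Irx1, Irx3, Pou3f3, Esrrg and Sim2. The thick limb list kept a negative median without either KspCre DKO library, −1.48 without replicate 1 and −0.96 without replicate 2.

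Of 12 distal and connecting tubule genes 3 were higher and 9 lower (median −0.44). At an unadjusted p below 0.05, 4 were lower and none was higher, where 6.15% of all tested genes were lower and 4.16% higher. Slc12a3, the thiazide-sensitive cotransporter, stood at 231 and 181 TPM in KspCre DKO kidneys, against 155, 133 and 127 TPM in controls (limma adjusted p = 0.498). S100g, a calcium-binding protein gene, stood at 1634 and 2247 TPM, against 3970, 3306 and 3706 TPM in controls (limma adjusted p = 0.201). Slc16a7, a monocarboxylate transporter, stood at 10.97 and 8.77 TPM, against 20.4, 20.1 and 25.7 TPM in controls (limma adjusted p = 0.247). Of 15 proximal tubule genes 7 were higher and 8 lower (median −0.06), and 2 were lower and none was higher at that unadjusted p. Slc34a1, the phosphate cotransporter, stood at 3053 and 1104 TPM, against 1831, 1527 and 1119 TPM in controls, and so lay on either side of the controls as Hnf4a did. Slc7a13, an amino acid transporter of the late proximal tubule, stood at 12.9 and 32.8 TPM, against 57.9, 49.2 and 71.2 TPM in controls (limma adjusted p = 0.253). Kap, an abundant androgen-regulated protein, stood at 21775 and 26512 TPM, against 40762, 30030 and 34021 TPM in controls (limma adjusted p = 0.428).

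**Figure D5:**
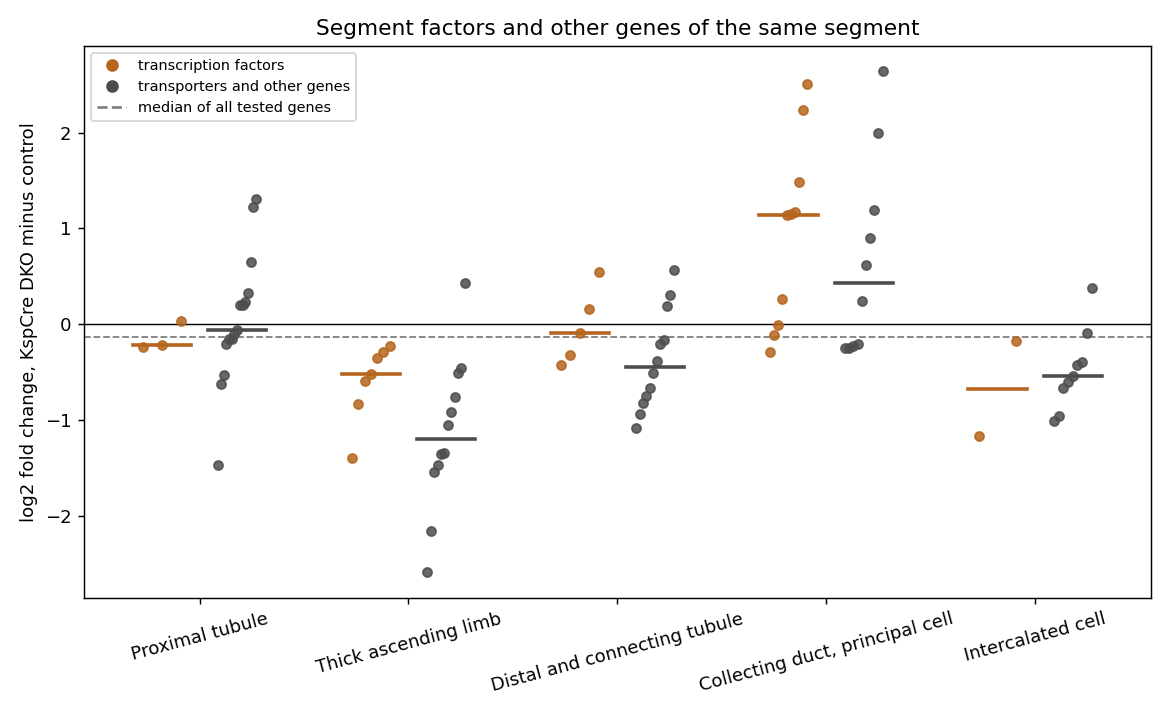
Log2 fold change, KspCre DKO minus control, of the tested segment factors (brown) and of transporters and other genes of the same segment (grey), with a bar at each median and a dashed line at the median of all tested genes, −0.14. The thick limb medians are −0.52 for factors and −1.20 for other genes, and the collecting duct medians are 1.14 for factors and 0.43 for principal cell genes.

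Among 24 other tubule regulators read as a list, 23 were tested and none was called. Their median was 0.05, with 12 above 0 and 11 below. Bcl6, a zinc finger repressor, stood at 37.8 and 19.9 TPM in KspCre DKO kidneys, against 11.2, 5.58 and 6.74 TPM in controls (log2 fold change 1.74 ± 0.40 SE, limma adjusted p = 0.178). Hoxd10, a homeobox gene, stood at 8.53 and 1.66 TPM, against 12.96, 17.95 and 23.2 TPM in controls (log2 fold change −1.88 ± 0.53 SE, limma adjusted p = 0.269). Prox1, a homeobox factor also made by lymphatic endothelium, stood at 5.06 and 5.02 TPM, against 2.02, 0.88 and 2.39 TPM in controls (limma adjusted p = 0.366). Glis3, a zinc finger factor tied to cystic kidneys, stood at 8.23 and 13.7 TPM, against 6, 4.76 and 4.76 TPM in controls (limma adjusted p = 0.397). The unadjusted p was below 0.05 for 3 higher regulators and 1 lower one, where 4.16% of all tested genes were higher and 6.15% lower.

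Markers of other cells were also read by counts, medians and sums, and none of those tested was called. Of 7 urothelial markers 4 were higher and 3 lower, and their summed level was 406 and 269 TPM in KspCre DKO kidneys, against 147, 75.6 and 104 TPM in controls. At an unadjusted p below 0.05, 3 were higher and none was lower, where 4.16% of all tested genes were higher and 6.15% lower. No urothelial marker was at 0 in any library. Psca made up most of the sum, at 316 and 179 TPM, against 71.0, 28.6 and 36.0 TPM in controls (limma adjusted p = 0.081). Upk3b, an uroplakin, stood at 18.7 and 12.9 TPM, against 6.56, 2.42 and 2.06 TPM in controls (limma adjusted p = 0.18). Upk3a, also an uroplakin, stood at 33.4 and 30.1 TPM, against 22.4, 16.1 and 19.5 TPM in controls (limma adjusted p = 0.444). Upk1a, another uroplakin, stood at 9.03 and 7.42 TPM, against 14.1, 4.88 and 8.97 TPM in controls, with overlapping groups. The part of urothelium in the levels of Gata3, Elf3, Ehf and Tbx3 was not tested.

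Of 8 fibroblast markers 7 were tested and all 7 were lower (median −0.74), with a summed level of 100 and 134 TPM in KspCre DKO kidneys, against 238, 112 and 293 TPM in controls. Lum was at 0 in KspCre DKO replicate 2. Of 7 macrophage markers 6 were tested and all 6 were lower (median −0.72), with a sum of 57.5 and 54.8 TPM, against 120, 86.0 and 107 TPM in controls. Adgre1 was at 0 in KspCre DKO replicate 2. Podocyte and endothelial markers had medians of −0.17 and −0.14, close to the −0.14 of all tested genes. The 5 red cell genes were all higher (median 1.31), with sums of 8504 and 9899 TPM, against 8330, 983 and 3492 TPM in controls. Their part in the levels of the factors was not tested.

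Noncoding transcripts lie over or beside many of the factors. Within 1000 bases of a factor, RefSeq lists 34 transcripts, of which 23 are in the files and 10 had a mean of at least 1 TPM. Pantr1, just before Pou3f3, stood at 48.8 and 66.7 TPM in KspCre DKO kidneys, against 123, 208 and 147 TPM in controls (log2 fold change −1.43, limma adjusted p = 0.162), with the groups apart where those of Pou3f3 overlapped. Lhx1os, beside Lhx1, stood at 11.4 and 0.51 TPM, against 17.4, 21.1 and 26.2 TPM in controls (log2 fold change −2.37, limma adjusted p = 0.324). The 9230102O04Rik transcript, which overlaps Gata3, stood at 7.51 and 11.2 TPM, against 5.45, 3.44 and 1.89 TPM in controls (log2 fold change 1.22, limma adjusted p = 0.366). Also over Gata3, 4930412O13Rik stood at 1.9 and 0 TPM, against 0.18, 1.18 and 2.81 TPM in controls (log2 fold change −0.33). Tbx3os1, over Tbx3, stood at 4.21 and 5.69 TPM, against 1.14, 3.05 and 2.85 TPM in controls (log2 fold change 0.87). Gm16136, over Grhl2, stood at 16.8 and 22.6 TPM, against 15.6, 12.8 and 9.42 TPM in controls (log2 fold change 0.62). Hnf4aos, which overlaps Hnf4a, stood at 20.6 and 0 TPM, against 15.01, 15.5 and 15.5 TPM in controls. Overlap was judged on whole annotated spans, not on exons. The strand setting is not given in the sources used here. How far reads of Gata3, Hnf4a, Tbx3 and Grhl2 were told apart from those of overlapping transcripts is therefore unknown. These neighbours were chosen after their values were seen.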

How the data were processed

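RNA of whole kidneys was measured in 2 KspCre DKO and 3 control libraries, grouped by title and genotype label. The deposited values are TPM per gene, made by the authors and taken as deposited. RSEM 1.3.1, STAR 2.2.1, Trim Galore 0.5.0 and Bismark 0.19.1, and build mm10, are named in the submitters' processing notes. Their settings, the annotation and the strand were not given in the sources used here. RNA was poly(A) selected, per the labels' protocols. Symbols came from a gene name table that covered 99.9% of identifiers, and positions and upstream sequences from RefSeq (GRCm38.p6).

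On log2(TPM + 1), groups were compared by limma 3.58.1 (R 4.3.3; two-sided; moderated variances that follow the mean level). Genes averaging 1 TPM or more entered, 13963 in all, and Benjamini-Hochberg adjustment ran over all of them. A gene was called at adjusted p below 0.05. Fold changes on this scale understate those of low genes. The script was tested on simulated data. There, 3.8% of genes given a log2 change of 1 were called, and 62.6% of those given a change of 2. Only genes well above the filter were changed, and no simulated library was shifted as KspCre DKO replicate 2 was. Detection in these libraries may differ from those rates. A factor that was not called may therefore still differ. Alternatives changed the pseudocount, the filter, the scaling and the variance model, added the replicate block or left out a library. An exact permutation of 3 against 2 libraries cannot give a p below 0.1.

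The members, their placement by segment and the gene lists were chosen with earlier results of these data known. Values in every library were to be given for factors whose log2 fold change reached 0.8 in size or that were among the 12 smallest p, and for Pax2, Pax8 and Hnf4a; others were added after their values were seen. From each other segment list the first gene and the 2 of smallest p were named, and the 4 of smallest p among the other regulators; Scnn1b, Scnn1g and the named markers of other cells were added after their values were seen.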

Additional observations from a re-analysis of the deposited data

How the results depend on the processing

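With 11 alternatives and each library left out in turn, the signs of Elf5, Tbx3, Ehf, Elf3, Gata3, Emx2, Esrrb, Irx2, Pax2 and Pax8 stayed as reported. Factors called higher numbered 0 as reported, 2 with a pseudocount of 5 (Elf5 and Tbx3), 2 with the replicate block (Elf5 and Tbx3), 1 with TPM rescaled without mitochondrial genes (Elf5) and 0 to 1 with a library left out. Factors called lower numbered 0 to 1 with a library left out (Esrrb without KspCre DKO replicate 1). Over all genes, 14 were called higher and 9 lower as reported. The higher count was 3 with array weights, 24 with median-of-ratios scaling, 3 with no filter, 6 without an intensity trend, 7 with a pseudocount of 0.1, 28 with a pseudocount of 5, 35 with quantile normalization, 26 without mitochondrial genes and 3 to 90 with a library left out. The lower count was 2 with array weights, 1 with no filter, 3 without an intensity trend and 3 to 470 with a library left out. The replicate numbers were not shown to pair the libraries: same-numbered deviations correlated at 0.0926 and 0.0281 over tested genes. With the replicate block, in which control replicate 3 has no partner and adds no information on the difference, 47 genes were called higher and 28 lower.

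The collecting duct median was 1.14 as reported, 1.004 with a pseudocount of 5, 1.002 with the replicate block and 1.002 to 1.21 with a library left out. With a library left out the medians ran from −0.23 to 0.98 for nephron-wide factors, −0.73 to 0.52 for proximal and −0.56 to 0.20 for distal ones, with KspCre DKO replicate 1 or 2 at the ends. Quantile normalization moved the median of all tested genes from −0.14 to −0.02.

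Small log2 fold changes reversed. With the replicate block they were −0.0466 for Lhx1, −0.0233 for Hnf4a and 0.11 for Sim1. Mecom was 0.0115 with median-of-ratios scaling and 0.0131 without mitochondrial genes. Grhl1 was 0.23 with quantile normalization. Grhl2 was 0.10 with array weights, 0.09 with median-of-ratios scaling, 0.0604 with quantile normalization and 0.10 without mitochondrial genes. With a library left out, the ranges were −0.74 to 0.92 for Lhx1, −0.45 to 0.52 for Hnf4a, −0.99 to 0.52 for Maf, −0.73 to 0.29 for Sim1, −0.78 to 0.20 for Irx3, −0.62 to 0.16 for Pou3f3, −1.26 to 0.57 for Esrrg, −0.57 to 0.88 for Tfap2b, −0.61 to 0.42 for Mecom, −0.72 to 0.50 for Grhl1, −0.30 to 0.30 for Grhl2, −0.67 to 0.10 for Tfcp2l1 and −0.65 to 0.30 for Dmrt2. The cause was not tested. Depth is unknown, so precision at low TPM cannot be given.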
